A study of Rattus norvegicus with 9 samples.

Results

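The Gq, phospholipase C and IP3 receptor genes form the core of a calcium-signaling cascade, and 10 of them were taken as one set: the alpha subunits Gnaq and Gna11, the phospholipases Plcb1, Plcb2, Plcb3, Plcb4 and Plce1, and the IP3 receptors Itpr1, Itpr2 and Itpr3. A gene was measured by the probe set that carried its symbol alone, and 9 of the 10 had such a probe set, 1 each, among the 21013 genes of the arrays that could be named in this way. Itpr3 was not analysed here. RNA of the left ventricle of the heart of male Wistar rats of 250 to 290 g was measured on 9 arrays, 3 for each of the control, IRI and IRI + RPostC groups, to see how ischemia/reperfusion injury (IRI) and remote ischemic postconditioning (RPostC) change gene expression. Per the labels all rats were of one age, whose value is not given, and had been anaesthetized with pentobarbital, ventilated and opened at the chest. In the control group a thread was laid around the left anterior descending coronary artery without closing it, and the chest was closed 60 min later. In the IRI group that artery was closed for 45 min and then opened, with 15 min of stabilization. In the IRI + RPostC group the same occlusion of 45 min was followed by 3 cycles in which the left femoral artery was clamped for 30 s and released for 30 s, and then by 15 min of stabilization. The general account of the surgery gives 30 min of ligation in place of 45 min. How long after reperfusion the ventricle was sampled was not found in the sources used here, nor was the place of the sample relative to the infarct. The series record names a human array and the methods a rat array, and the probe sets carry rat annotation.

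Gnaq and Gna11 encode the alpha subunits through which receptors for norepinephrine, angiotensin II, endothelin and other agonists switch on phospholipase C-beta. That enzyme cleaves a membrane phosphoinositide into diacylglycerol, which recruits protein kinase C, and inositol trisphosphate (IP3), which opens IP3 receptors, the calcium-release channels of the endoplasmic reticulum. In the heart this pathway is known for its part in hypertrophic growth, and IP3 receptors are minor calcium-release channels of the cardiomyocyte beside the ryanodine receptor.

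Promoter sequence from RefSeq on the rat GRCr8 build was found for 7 of the 9 measured genes, and the 4 printed below belong to those that passed the test against control in at least 1 comparison. Each is the 250 bases before the annotated start, written in the direction of transcription. Capitals mark every match to 6 searched motifs on either strand, which were the AP-1 site TGACTCA, the cyclic AMP element TGACGTCA, the GC box GGGCGG, the CCAAT box CCAAT, the E box CACGTG and the TATA box TATAAA. Overlapping matches were all counted.
Gnaq, chr1:222852203-222852452, plus strand: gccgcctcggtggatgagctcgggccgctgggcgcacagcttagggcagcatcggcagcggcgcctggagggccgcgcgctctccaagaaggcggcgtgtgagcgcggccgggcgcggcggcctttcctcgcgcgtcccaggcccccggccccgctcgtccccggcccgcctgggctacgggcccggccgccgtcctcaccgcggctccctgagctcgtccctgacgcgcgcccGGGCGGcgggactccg
Gna11, chr7:8814035-8814284, plus strand: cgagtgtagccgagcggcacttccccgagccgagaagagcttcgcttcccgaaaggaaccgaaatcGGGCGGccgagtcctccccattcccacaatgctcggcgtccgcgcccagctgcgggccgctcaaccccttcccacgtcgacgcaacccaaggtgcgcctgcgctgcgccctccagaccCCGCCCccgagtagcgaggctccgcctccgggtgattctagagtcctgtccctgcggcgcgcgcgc
Plcb1, chr3:142512515-142512764, plus strand: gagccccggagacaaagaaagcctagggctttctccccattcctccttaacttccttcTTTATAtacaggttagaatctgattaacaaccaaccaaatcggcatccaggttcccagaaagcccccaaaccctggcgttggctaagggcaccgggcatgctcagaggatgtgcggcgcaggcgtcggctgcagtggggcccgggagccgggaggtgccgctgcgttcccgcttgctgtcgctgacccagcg
Plcb4, chr3:143405723-143405972, plus strand: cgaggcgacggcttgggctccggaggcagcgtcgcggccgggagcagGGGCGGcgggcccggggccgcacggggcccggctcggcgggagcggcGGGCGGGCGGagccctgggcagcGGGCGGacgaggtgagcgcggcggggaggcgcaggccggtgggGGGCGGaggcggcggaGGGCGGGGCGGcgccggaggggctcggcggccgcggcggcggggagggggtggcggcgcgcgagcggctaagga
The GC box, a letter pattern known to bind Sp1-type factors, stood in 5 of the 7 promoters (Gnaq, Gna11, Plcb3, Plcb4 and Itpr2) and in 30.5% of all 33469 promoters of this length. Plcb4 held 7 matches, some of them overlapping, Gna11 held 2 and Gnaq held 1, at position -16 from the start. Plcb1, printed above beside its neighbour Plcb4, had no GC box and 1 TATA box match on the opposite strand, at position -192. TATA box letters were found in 12.9% of all promoters and in that 1 member, and a CCAAT box in 34.0% and in Itpr2 only. No member held an AP-1 site (4.05% of all promoters), a cyclic AMP element (1.59%) or an E box (5.59%). The share of G and C was 80% in Gnaq, 70.0% in Gna11, 59.6% in Plcb1 and 86.4% in Plcb4, against a median of 51.2% over all promoters. Gnaq and Gna11, whose signals moved apart in the arrays as described below, thus both had GC-rich promoters with a GC box. The GC box is written in G and C only, so the 30.5% over all promoters does not compare promoters of like composition. A match is only a match of letters. Plcb1 and Plcb4 lie on the same strand of chromosome 3 with no protein-coding gene between them.

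The deposited signals were on a log2 scale, so that a difference of 1 is a change of 2-fold, and ran from 2.04 to 19.93. A log2 signal of 4.91, the 95th percentile of the signals of 267 olfactory, vomeronasal and taste receptor probe sets, was taken as the background limit. The groups did not share the same distribution. Control arrays held 166 to 172 probe sets at a log2 signal of at least 19 and the remaining 6 arrays 1918 to 1948, and the 4 hybridization controls averaged 11.21 in control, 10.42 in IRI and 10.44 in IRI + RPostC. Group and array processing cannot be told apart, since all control arrays differed in the first of these counts from all others. The changes of members and named pathway genes are therefore given with their values after quantile normalization, which forces all 9 arrays to one distribution, and those of members also after centring of each array on its median where a call or direction moved. Quantile normalization shifted bright genes far down. Myl2, at 12.74 in every group as deposited, became -5.67 in IRI against control, and Vdac1 went from 0.15 to -5.88. A large negative value of a bright gene after it is therefore not evidence of a larger fall. All 10 cardiomyocyte markers measured were above background in all groups, with a log2 summed signal of 21.14 to 21.19 in control and 21.63 to 21.64 in both other groups. That sum rests on probe sets near the top of the scale (Actc1, Atp2a2 and Myh7). Of the 10, 3 (Myh7, Myl3 and Tnni3) were called higher in both comparisons with control as deposited, and 9 were called lower after quantile normalization. No label ties the replicates of a group to different rats, so a p-value here reflects only how the arrays of a group scatter, and 3 per group limit the precision. Identical values recurred: 8 of the 9 members, as well as 86.2% of all genes, had the same deposited value on at least 2 arrays. Where arrays of 1 group share a value, as Gnaq and Plcb1 do in IRI, they add little or nothing to the estimated spread. The SEs, intervals and p-values may then look more precise than they are.

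In IRI against control, the Gq alpha subunits moved apart. Gnaq and Plcb4 were higher and Gna11 was lower, the other 6 members did not pass the test, and after quantile normalization the higher signals of Gnaq and Plcb4 became lower ones. The test was limma across all 65403 probe sets, with a call at a Benjamini-Hochberg adjusted p under 0.05. Thus 2 of 9 members were called higher, where 8.9% of all genes were, and 1 of 9 was called lower, where 9.42% of all genes were. In IRI + RPostC against control, Gnaq, Plcb1 and Plcb4 were called higher and Gna11 lower, that is 3 of 9 where 10.2% of all genes were higher and 1 of 9 where 9.84% were lower. The groups did not overlap for 5 members in either comparison (Gnaq, Gna11, Plcb1, Plcb4 and Itpr1), beside 32.3% of all genes in IRI against control and 35.5% in IRI + RPostC against control. The median log2 fold change over the 9 members was 0.16 in IRI and 0.22 in IRI + RPostC, against -0.03 and -0.04 over all genes. After quantile normalization no member was called higher in either comparison and 5 were called lower (Gna11, Plcb3, Plcb4, Plce1 and Itpr2), where 23.7% of all genes were lower in IRI and 24.4% in IRI + RPostC. Both comparisons use the same 3 control arrays. The shares of all genes were taken without a filter on signal. The median log2 signal of all probe sets was 4.53 in control, 4.45 in IRI and 4.41 in IRI + RPostC, below the background limit. Every member but Plcb2 was above background, so the shares do not compare genes of like signal.

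**Figure D1:**
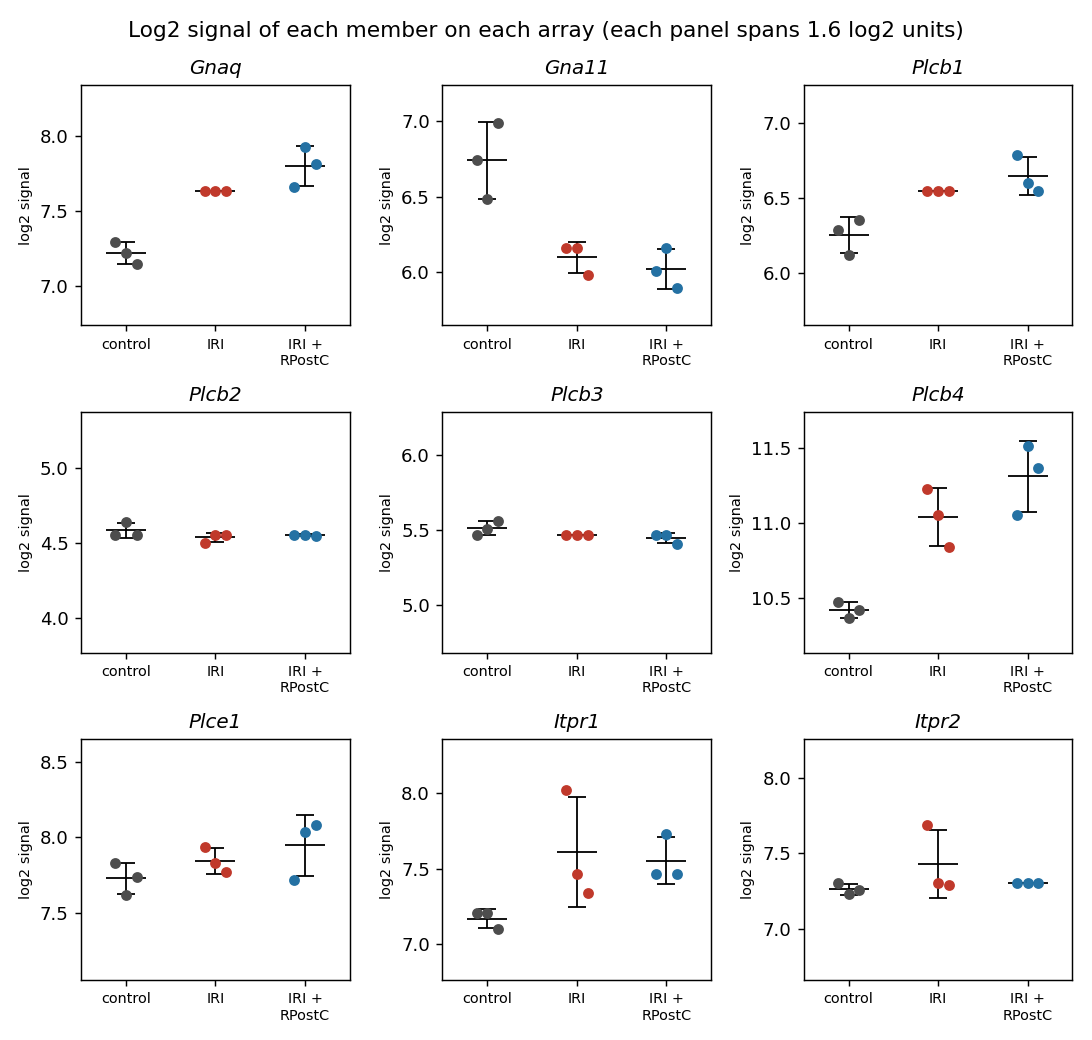
Log2 signal of the 9 measured members on each of the 9 arrays, one panel per gene, with points for single arrays of control, IRI and IRI + RPostC and bars for the mean and SD (n = 3). Gna11 sits between 6.48 and 6.99 in control and no higher than 6.16 in the other groups. Gnaq is between 7.15 and 7.30 in control and at 7.63 or above in the others, while the mean difference of Gnaq from control has the opposite sign after quantile normalization.

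Gnaq encodes the alpha subunit of Gq itself. Its log2 signal was 7.30, 7.22 and 7.15 on the control arrays, 7.63 on each of the 3 IRI arrays, and 7.66, 7.93 and 7.82 on the IRI + RPostC arrays. Every control array was below every other array, and the 3 IRI values were identical, so that their SD was 0. In IRI against control Gnaq was higher by 0.41 ± 0.07 (SE) on the log2 scale, or 1.33-fold (95% confidence interval of the log2 difference 0.24 to 0.58, limma adjusted p = 0.00702), but lower by 0.23 after quantile normalization, at an adjusted p of 0.0724. In IRI + RPostC against control it was higher by 0.58 ± 0.07 (SE), or 1.49-fold (interval 0.41 to 0.75, limma adjusted p = 0.00116), again with the opposite sign after quantile normalization (-0.19, adjusted p = 0.122). Centring on the medians gave 0.50 and 0.70. Leaving out any 1 array kept Gnaq called in both comparisons, with log2 differences of 0.38 to 0.45 in IRI and 0.52 to 0.65 in IRI + RPostC. Because its IRI values were identical, leaving out an IRI array could not move the difference of 0.41 in IRI. Within the array, Gnaq stood at a mean percentile of 90.48 among the probe sets in control, 89.7 in IRI and 89.83 in IRI + RPostC.

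Gna11 encodes the closest relative of Gq alpha, which couples to the same phospholipases. Its log2 signal was 6.75, 6.48 and 6.99 in control, 6.16, 6.16 and 5.98 in IRI, and 6.00, 6.16 and 5.89 in IRI + RPostC. All control arrays were above all other arrays, and the IRI and IRI + RPostC ranges overlapped. Gna11 fell by 0.64 on the log2 scale in IRI (95% confidence interval of the difference -0.96 to -0.33, limma adjusted p = 0.0163). In IRI + RPostC it fell by 0.72 (interval -1.04 to -0.41, limma adjusted p = 0.0091). It was the only member called in the same direction as deposited, after quantile normalization (-1.10 and -1.21, adjusted p = 0.00189 and 0.00106) and after median centring (-0.56 and -0.60, adjusted p = 0.0341 and 0.0237). Its mean percentile in the array went from 88.19 in control to 81.4 in IRI and 80.41 in IRI + RPostC. The call in IRI was lost without IRI replicate 3 (-0.59, adjusted p = 0.0594) and when the control and IRI arrays were fitted without the third group (adjusted p = 0.0521). It was also lost with the replicate number as a block (0.061) and with the methods' t-test after Benjamini-Hochberg adjustment (0.108), which lost the call in IRI + RPostC as well (0.0832). In whole tissue, fewer cells of a type and less RNA per cell cannot be told apart.

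Since a difference between both signals on 1 array does not depend on centring, the log2 signal of Gnaq minus that of Gna11 was also taken, a quantity chosen after the values were seen. It was 0.55, 0.74 and 0.16 on the control arrays, 1.48, 1.48 and 1.66 on the IRI arrays, and 1.66, 1.77 and 1.92 on the IRI + RPostC arrays. The control arrays did not overlap the others, and the value on its own says nothing about which transcript was more abundant. The change of Gnaq exceeded that of Gna11 by 1.06 in IRI and by 1.30 in IRI + RPostC. After quantile normalization, the only scaling here that could alter this, it did so by 0.87 and 1.02, in the same direction.

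Among the phospholipases, Plcb4, an isoform known from the retina and cerebellum, differed most from control in the signals as deposited, and its direction reversed after quantile normalization. Its log2 signal was 10.47, 10.36 and 10.42 in control, 11.23, 11.05 and 10.84 in IRI, and 11.05, 11.51 and 11.37 in IRI + RPostC. No control array reached the lowest of the others, and the IRI and IRI + RPostC ranges overlapped. In IRI Plcb4 was higher by 0.62 ± 0.14 (SE) on the log2 scale, or 1.54-fold (95% confidence interval 0.30 to 0.94, limma adjusted p = 0.0202), while quantile normalization turned this into -3.68 (adjusted p = 0.00624). In IRI + RPostC the difference was 0.89, or 1.85-fold (interval 0.57 to 1.21, limma adjusted p = 0.00355), and -3.64 after quantile normalization (adjusted p = 0.00638). Plcb4 stood at a mean percentile of 96.5 in control, 94.99 in IRI and 95.02 in IRI + RPostC. The 95th percentile of all probe sets was a log2 signal of 9.12 in control, 11.05 in IRI and 11.26 in IRI + RPostC. Rap1a, with a mean of 10.69 in control, went from a difference of -0.02 in IRI to -4.47 after quantile normalization. The reversal of Plcb4 thus cannot be read apart from a shift that bright genes shared. The call in IRI was also lost in limma without control replicate 2 (adjusted p = 0.0634), control replicate 3 (0.0562), IRI replicate 1 (0.0636) or IRI replicate 2 (0.0657). It was lost as well with the replicate block (0.0637) and with the methods' t-test after Benjamini-Hochberg adjustment (0.0561). The call in IRI + RPostC was kept without any 1 array.

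Plcb1 encodes a Gq-regulated isoform that in cultured rat cardiomyocytes is linked to hypertrophic growth. Its log2 signal was 6.28, 6.12 and 6.35 in control, 6.54 on each IRI array, and 6.78, 6.60 and 6.54 in IRI + RPostC. The control arrays were again the lowest and did not overlap the others. The difference in IRI was 0.29 (95% confidence interval 0.10 to 0.48), and its limma adjusted p of 0.0501 missed the threshold. It passed after median centring (0.38, adjusted p = 0.0188) or without control replicate 3 (adjusted p = 0.0432), and was -0.10 after quantile normalization. In IRI + RPostC Plcb1 was called higher by 0.39, or 1.31-fold (interval 0.20 to 0.58, limma adjusted p = 0.0143), with a value of -0.07 after quantile normalization. That call was lost when the control and IRI + RPostC arrays were fitted alone (adjusted p = 0.0579) and with the methods' t-test after Benjamini-Hochberg adjustment (0.108).

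The other phospholipases were not called as deposited. Plcb2, the isoform typical of blood cells, had log2 signals of 4.5 to 4.64 over the 9 arrays and was not above background in any group, so no fold is given. Plcb3, which Gq and G protein beta-gamma subunits both activate, ran from 5.47 to 5.56 in control, was 5.47 on all IRI arrays and lay between 5.41 and 5.47 in IRI + RPostC. Thus 6 arrays shared 1 value of Plcb3. Its differences from control were -0.04 (95% confidence interval -0.13 to 0.04) and -0.06 (-0.15 to 0.02), which became 0.04 and 0.06 after centring and -0.22 and -0.24 after quantile normalization, the last 2 being called (adjusted p = 0.0342 and 0.0199). Plce1, the isoform that Ras-family GTPases control, was the only member with 9 distinct values, at 7.62 to 7.83 in control, 7.77 to 7.94 in IRI and 7.72 to 8.09 in IRI + RPostC. All 3 ranges overlapped. The differences from control were 0.12 (-0.14 to 0.37) and 0.22 (-0.04 to 0.48), with limma adjusted p of 0.525 and 0.222, and -0.73 and -0.75 after quantile normalization. Without IRI + RPostC replicate 1, Plce1 passed in IRI + RPostC (0.33, adjusted p = 0.0389).

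Neither IP3 receptor that was measured was called as deposited. Itpr1 had a log2 signal of 7.21, 7.20 and 7.10 in control, 8.02, 7.46 and 7.34 in IRI, and 7.46, 7.73 and 7.46 in IRI + RPostC. The control arrays were the lowest 3 of the 9, and IRI replicate 1 was the highest. The difference in IRI was 0.44 (95% confidence interval 0.03 to 0.86, unadjusted p = 0.0403, limma adjusted p = 0.157), 0.23 without IRI replicate 1 and -0.19 after quantile normalization. In IRI + RPostC it was 0.39 (-0.03 to 0.80, limma adjusted p = 0.189), and -0.35 after quantile normalization. Itpr2, the main IP3 receptor of cardiomyocytes, ran from 7.23 to 7.30 in control and from 7.29 to 7.69 in IRI and was 7.30 on all IRI + RPostC arrays. As for Itpr1, its highest value was on IRI replicate 1, and without that array the difference in IRI went from 0.16 (-0.08 to 0.41) to 0.03. In IRI + RPostC the difference was 0.04 (-0.20 to 0.28). After quantile normalization Itpr2 was lower in both comparisons (-0.49 and -0.70, adjusted p = 0.0169 and 0.00254).

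**Figure D2:**
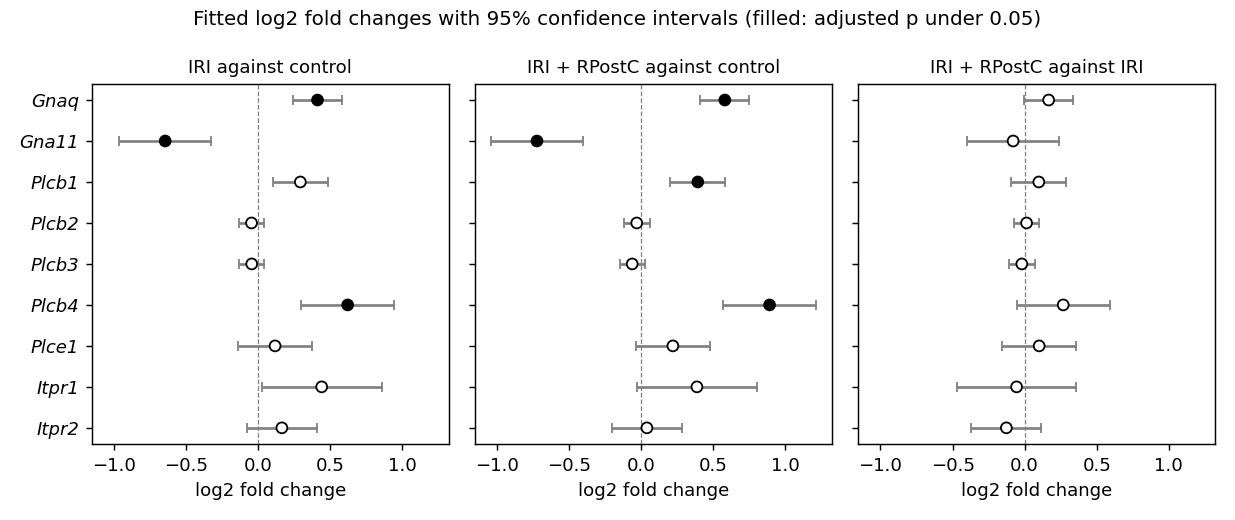
Log2 difference from control (horizontal axis) for each of the 9 measured members in IRI and in IRI + RPostC, and between IRI + RPostC and IRI, with 95% confidence intervals from limma on the signals as deposited and filled points at an adjusted p under 0.05. Gnaq and Plcb4 lie above 0 and Gna11 below 0 in both comparisons with control, the first pair changing sign after quantile normalization, and every interval between IRI + RPostC and IRI includes 0.

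**Figure D3:**
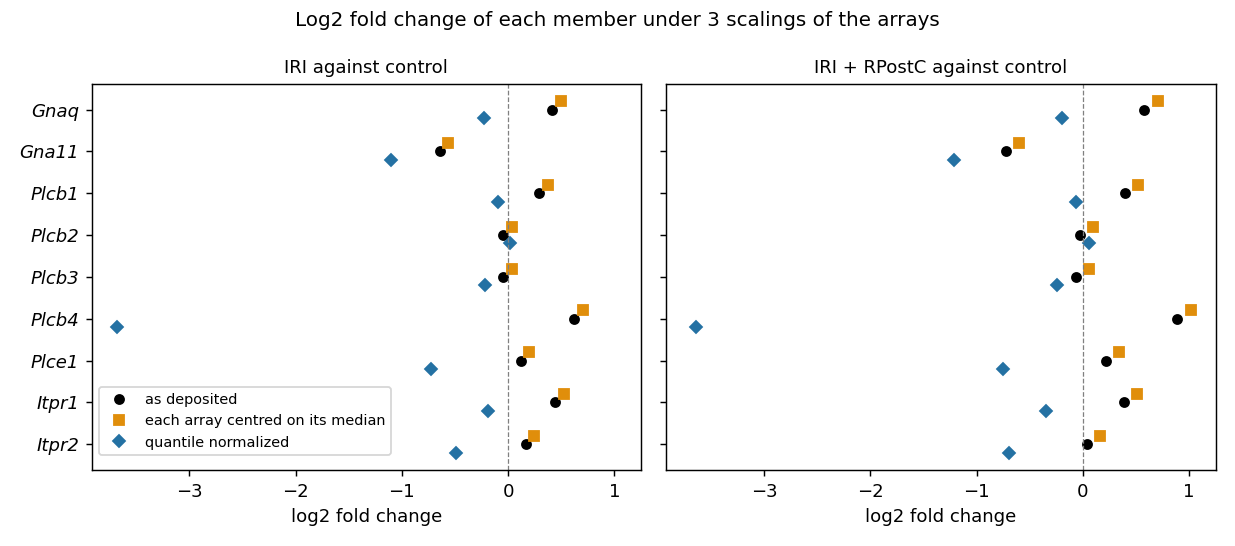
Log2 difference from control of each measured member in IRI (left) and IRI + RPostC (right) as deposited, after quantile normalization and after centring of each array on its median. Gna11 is below 0 under all 3, and Plcb4 goes from 0.62 in IRI as deposited to -3.68 after quantile normalization.

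IRI + RPostC was then set against IRI to see what the postconditioning added. No member was called, where 0.0% of all genes were, and all adjusted p-values of the members were 1. At an unadjusted p under 0.05 limma gave 0 of 9 members and 2.68% of all genes, and the methods' t-test also gave 0 members. Gnaq alone did not overlap between both groups, where 4.57% of all genes did not, and was higher by 0.17 (95% confidence interval -0.00 to 0.34, unadjusted p = 0.0525). For Plcb4 the difference was 0.27 (-0.05 to 0.59). For the other members it lay between -0.13, for Itpr2 (-0.37 to 0.12), and 0.10, for Plce1 (-0.16 to 0.36) and Plcb1 (-0.09 to 0.29). For Gna11 it was -0.08 (-0.40 to 0.24) and for Itpr1 -0.06 (-0.47 to 0.36). Plcb3 differed by -0.02 (-0.11 to 0.07). A p that misses the threshold does not show that the groups were alike.

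Beyond the core genes, 163 of 177 listed genes of the pathway were measured in 9 groups. In IRI against control 25 were called higher and 21 lower (median log2 difference 0.00), or 15.3% and 12.9%, beside 8.9% and 9.42% of all genes. After quantile normalization 12 were higher and 60 lower, or 7.36% and 36.8%, beside 4.44% and 23.7% of all genes. In IRI + RPostC 29 were called higher and 21 lower, or 17.8% and 12.9%, beside 10.2% and 9.84% of all genes. After quantile normalization these were 15 and 59, or 9.2% and 36.2%, beside 4.97% and 24.4% of all genes. Here too no filter on signal was set, so the shares do not compare genes of like signal, and a difference between them was not tested. The genes named for each group had the largest rise and fall among its calls in IRI and were chosen for it, so their values are a description. Their log2 difference between IRI and control is given as deposited and then after quantile normalization. For bright genes the second value includes the downward shift described above for Myl2 and Vdac1.

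Upstream, 4 of 27 Gq-coupled receptors were higher in IRI and 2 lower (5 and 1 in IRI + RPostC), and after quantile normalization 4 and 4 in IRI. The 27 include receptors that were not above background in any group, such as Htr2a, Chrm1 and Grm5. Ptgfr, the receptor of prostaglandin F2-alpha, had a mean log2 signal of 5.09 in control (SD 0.20, n = 3) and rose to 6.28 ± 0.18 in IRI (difference 1.19, then 1.07, limma adjusted p = 0.000378) and 6.05 ± 0.04 in IRI + RPostC. Adra1b, the alpha-1B adrenergic receptor, fell from 6.41 ± 0.50 to 5.41 ± 0.29 in IRI (-1.0, then -1.37, adjusted p = 0.0422) and had a value of 5.63 ± 0.18 in IRI + RPostC, where it was not called (0.0895). Of 19 other G protein subunits and Gq regulators, 2 were higher and 5 lower in IRI (3 and 5 in IRI + RPostC), and after quantile normalization 1 and 9 in IRI. Gna13, an alpha subunit of the G12 family, rose from 6.46 ± 0.22 to 8.34 ± 0.16 in IRI (1.88, then 1.29, adjusted p = 5.5e-05) and 9.18 ± 0.13 in IRI + RPostC. Its difference between IRI + RPostC and IRI had an unadjusted p of 0.000396 and an adjusted p of 0.709. Gng5, a gamma subunit, fell from 13.04 ± 1.12 to 9.56 ± 0.26 and 9.93 ± 0.16 (-3.48, then -8.44 in IRI, adjusted p = 0.00281). Of 8 Ras and Epac inputs to Plce1, 2 were higher and none lower in IRI (1 and 0 in IRI + RPostC), but after quantile normalization 0 were higher and 5 lower. The small GTPase Rap1b rose from 7.38 ± 0.21 to 8.53 ± 0.06 and 8.72 ± 0.18 (1.16, then 0.36 in IRI, adjusted p = 0.000567). None of 9 other phospholipases C was called in either comparison as deposited, and after quantile normalization 1 was called lower in IRI + RPostC. Of these, Plcd3, Plcd4, Plch1, Plch2 and Plcz1 were not above background in any group, so the lack of a call says nothing about them.

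Around the substrate, 3 of 16 genes of phosphoinositide supply were higher and 2 lower in IRI (4 and 2 in IRI + RPostC), and after quantile normalization 1 and 10 in IRI. Pip5k1a, a kinase that makes the substrate of phospholipase C, rose from 7.0 ± 0.10 to 8.05 ± 0.45 in IRI and 8.12 ± 0.21 in IRI + RPostC (1.06, then 0.43 in IRI, limma adjusted p = 0.0164). Pi4ka, which makes the precursor of that substrate, fell from 7.73 ± 0.22 to 6.63 ± 0.36 and 6.76 ± 0.17 (-1.10, then -1.88 in IRI, adjusted p = 0.00873). For IP3 metabolism, 3 of 12 genes were higher and 1 lower in IRI (4 and 2 in IRI + RPostC), and after quantile normalization 3 and 2 in IRI. Inpp5a, a phosphatase that removes IP3, fell from 10.96 ± 0.19 to 8.77 ± 0.12 and 8.87 ± 0.03 (-2.19, then -7.08 in IRI, adjusted p = 4.32e-06). Inpp1, which acts further down the breakdown of inositol phosphates, rose from 6.21 ± 0.27 to 8.06 ± 0.49 and 8.04 ± 0.24 (1.85, then 1.37 in IRI, adjusted p = 0.00271).

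Downstream, 2 of 26 IP3 receptor partners were higher and 3 lower in both comparisons with control, and after quantile normalization 0 and 7 in IRI. Stim2, a calcium sensor of the endoplasmic reticulum, rose from 6.26 ± 0.05 to 7.04 ± 0.20 in IRI and 7.44 ± 0.27 in IRI + RPostC (0.78, then 0.36 in IRI, limma adjusted p = 0.0106). Erp44, a protein of the endoplasmic reticulum known to bind the type 1 IP3 receptor, fell from 9.55 ± 0.19 to 8.42 ± 0.11 and 8.58 ± 0.11 (-1.14, then -3.10 in IRI, adjusted p = 0.000305). In the diacylglycerol branch, 5 of 22 genes were higher and 1 lower in IRI (6 and 1 in IRI + RPostC), and after quantile normalization 2 were higher and 7 lower in IRI. Dgke, a kinase that consumes diacylglycerol, rose from 5.70 ± 0.19 to 7.48 ± 0.62 and 7.60 ± 0.44 (1.77, then 1.46 in IRI, adjusted p = 0.0109). Of 24 calcium effectors, 4 were higher and 7 lower in both comparisons, and after quantile normalization 1 was higher and 16 lower in IRI. Calm2, a gene of calmodulin, rose from 7.43 ± 0.41 to 11.48 ± 0.27 and 11.93 ± 0.34 (4.05, then 2.82 in IRI, adjusted p = 3.08e-05), and Ppp3cb, a catalytic subunit of calcineurin, fell from 11.09 ± 0.12 to 8.98 ± 0.20 and 8.89 ± 0.36 (-2.11, then -7.46 in IRI, adjusted p = 0.000187). Between IRI + RPostC and IRI none of the 163 genes was called, where 0.0% of all genes were. In limma 7 (4.29%) had an unadjusted p under 0.05, beside 2.68% of all genes, a difference that was not tested.

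**Figure D4:**
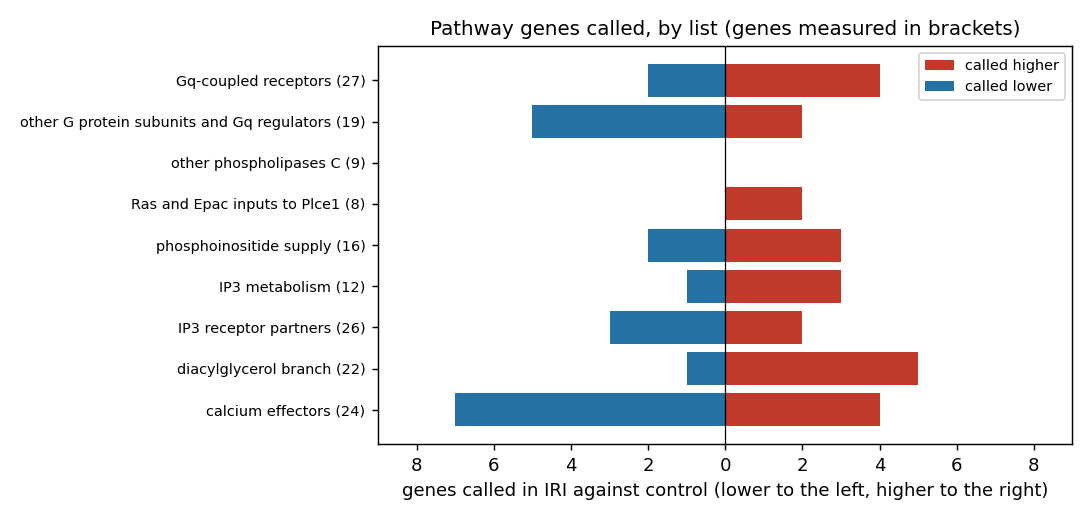
Number of genes called higher (to the right) and lower (to the left) in IRI against control in each of the 9 pathway groups, on the signals as deposited, with the genes measured in brackets. The calcium effectors have 4 higher and 7 lower genes. The other phospholipases C, several of them not above background, have none. After quantile normalization the counts over all groups change from 25 higher and 21 lower to 12 and 60.

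Markers of other cell types differed between the groups, and their part in the results on the members was not tested. Sums are on the log2 scale and are set largely by the brightest marker of a list, and counts are of markers called in IRI against control as deposited and then after quantile normalization. The 11 leukocyte markers, of which 3 were not above background in control and none in the other groups, summed to 8.93 to 8.97 in control, 9.79 to 10.07 in IRI and 9.88 to 10.35 in IRI + RPostC. Of them 4 were higher and 0 lower, then 3 and 1. Plcb2, the isoform typical of blood cells, was not above background in the same arrays, so its signal cannot be set beside these markers. The 6 endothelial markers summed to 11.77 to 12.02 in control, 14.09 to 15.66 in IRI and 14.63 to 15.04 in IRI + RPostC. Their counts were 4 higher and 0 lower, then 2 and 2, and the median log2 difference of the list went from 1.06 to 0.01. Pecam1, the brightest of them in IRI, differed by 7.01 as deposited and by 5.34 after quantile normalization. Emcn (3.41, then 2.39) and Vwf (0.79, then 0.41) also kept their direction. Kdr (1.14, then -4.97), Tek (0.98, then -0.43) and Tie1 (0.11, then -0.39) changed sign. The 7 fibroblast markers summed to 12.36 to 12.83 in control and 18.83 in both other groups, a sum that is nearly all Dcn, which itself differed by 6.46 as deposited and by -1.14 after quantile normalization. Their counts were 4 higher and 0 lower, then 1 and 2, and the list median went from 0.56 to -0.15. The 6 smooth muscle markers summed to 15.93 to 16.05 in control, 11.15 to 13.63 in IRI and 11.50 to 12.52 in IRI + RPostC, which is the fall of Acta2, from 16.00 in control to 11.93 in IRI and 11.99 in IRI + RPostC. The list median had the other sign (0.18, then -0.10), and the counts were 0 higher and 1 lower, then 0 and 2. For the 4 platelet markers the sum was 6.81 to 7.09 in control, 7.33 to 9.06 in IRI and 7.37 to 8.03 in IRI + RPostC, with 1 higher under both scalings. The 3 red cell markers summed to 8.07 to 8.44 in control and 7.46 to 7.53 in the others, with 1 lower under both scalings. Of 7 lymphocyte markers none was called in IRI under either scaling, and 1, Cd79b, was lower in IRI + RPostC as deposited. The mean log2 signal of Cd79b was 4.50 in control and 4.26 in IRI + RPostC, both under the background limit of 4.91. In control 5 of the 7 lymphocyte markers did not exceed background, and in IRI and in IRI + RPostC 6 did not. Their calls therefore cannot show whether lymphocytes changed.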

How the data were processed

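RNA of the left ventricle was measured on 9 arrays, 3 per group, mapped from their labels. The authors deposited log2 signals made by robust multichip analysis (RMA, per the submitters' processing notes). No source used here says whether all arrays went into 1 normalization. From 65526 probe sets 123 controls were removed. The platform annotation gave 22070 of the rest a single symbol, 478 several and 42855 none. For each gene the probe set with the highest mean was used. The deposited values were fitted without a filter by lmFit and eBayes of limma 3.58.1 under R 4.3.3 (3 groups in 1 fit, prior degrees of freedom 1.10), with Benjamini-Hochberg adjustment over 65403 probe sets, after a test on simulated data. Python 3.11.15 was used for tables.

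Members, lists and tests were chosen with earlier results of these data known. All members are named. Of each pathway list, the text names the largest rise and fall among genes called in IRI whose higher group averaged at least 6 (log2) and that stayed below 19 on all arrays. For the brightest member of each family, the 3 genes with the highest correlation are named. Alternatives were other scalings, tests, fits and filters and leaving out each array.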

Additional observations from a re-analysis of the deposited data

How the results depend on the processing

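Over 27 log2 differences of members, 402 values from alternatives were computed. Of these, 360 kept direction and side of the threshold, 13 lost the call, 6 gained one and 23 changed sign. Quantile normalization gave 15 of the changes of sign. In IRI against control it gave -0.23 for Gnaq, -0.10 for Plcb1, 0.0209 for Plcb2, -3.68 for Plcb4, -0.73 for Plce1, -0.19 for Itpr1 and -0.49 for Itpr2. In IRI + RPostC against control these were -0.19, -0.066, 0.06, -3.64, -0.75, -0.35 and -0.70, and between IRI + RPostC and IRI Plce1 was -0.0243. Centring on the median gave 5: Plcb2 at 0.0376 and 0.0909 and Plcb3 at 0.0391 and 0.0595 against control, and Plcb3 at 0.0204 between IRI + RPostC and IRI. Leaving out single arrays spanned 0 between IRI + RPostC and IRI for Plcb2 (-0.004 to 0.0228), Itpr1 (-0.19 to 0.15) and Itpr2 (-0.19 to 0.0042), each turning without IRI replicate 1. The members called in IRI went from 3 to 5 after quantile normalization and were 2 to 3 with an array left out. With the methods' t-test after Benjamini-Hochberg adjustment, which the methods do not name for single genes, there was 1. In IRI + RPostC they went from 4 to 2 with that adjusted t-test, and were 4 to 5 with an array left out. At an unadjusted p under 0.05 the t-test gave 4 members in IRI and 5 in IRI + RPostC. Of all 65403 probe sets it gave 13367 and 14838. Between IRI + RPostC and IRI the count was 0 throughout. Called pathway genes in IRI went from 46 to 72 after quantile normalization. The share of higher among called probe sets in IRI went from 61.4% to 34.7% after quantile normalization and 71.8% after centring, and in IRI + RPostC from 60.7% to 35.4% and 75.8%. The cause of these changes was not tested.

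With the replicate number as a replicate block, 1 member was called in IRI, 4 in IRI + RPostC and 0 between both. The labels do not pair the arrays. Deviations from the group means correlated at -0.3 to 0.037 for same-numbered arrays and at -0.349 to 0.396 for differently numbered ones. Taken from means of 3 arrays, such deviations cannot settle whether arrays were paired.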

Other observations

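The genes whose signals ran most like those of 1 member of each family were taken as a description over the 9 arrays, which share their 3 groups and the difference in distribution between control and the others. Among 5353 genes, Gnaq was followed most closely by Tbk1 (Pearson r = 0.998), Cul5 (0.996) and Phip (0.993). Tbk1 had a mean log2 signal of 6.64 in control, 7.57 in IRI and 7.86 in IRI + RPostC. For Plcb4 the closest were Arid2 (0.991), Fndc3b (0.990) and Eya4 (0.990), and Eya4 went from 5.19 to 6.42 and 6.94. For Itpr1 they were Vps13b (0.988), Prodh (0.982) and Clstn1 (0.981). Prodh had a mean of 6.35 in control, 8.24 in IRI and 7.95 in IRI + RPostC.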
